A study of Bos taurus with 8 samples.

Results

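The lymphocytes of fresh muscle were 188 cells that the authors had named B/T/NK cells, of 4395 kept cells in the library made directly after cell isolation (Muscle) and 36129 kept cells in the whole series. They were chosen by that name, which had been given from clusters of the same expression data, and none of the kept cells of the 4 culture libraries carried it. The cells came from the semitendinosus muscle of 10 Belgian Blue cattle, calves and adults of both sexes, which had been digested with collagenase and depleted of red cells by lysis, and they were neither sorted nor cultured. Cells of the 10 animals were pooled into 1 droplet-based 10x Genomics Chromium 3′ library and assigned to their animal by genotype, so the animal is the replicate, and all animals shared 1 library.

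Lymphocytes are white blood cells of several lineages. T cells carry the CD3 complex together with their antigen receptor and divide largely into CD4 helper and CD8 killer cells. B cells carry an antibody as receptor, with CD79A, CD79B and MS4A1 (CD20). Natural killer (NK) cells and other innate lymphoid cells lack both receptors. In solid tissues part of the T cells stay in place for long periods, and such resident cells are known for CD69 and CXCR6 and for low levels of S1PR1, the receptor that guides lymphocytes back into lymph and blood.

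The lymphocytes held 937681 unique molecular identifiers (UMIs, 1 per captured transcript molecule), with a median of 4407 UMIs and 1413 genes per cell, against 4168 UMIs and 1665 genes in the other 4207 cells of the library. The median share of mitochondrial UMIs was 3.94% in lymphocytes and 2.87% in the other cells. Levels are given as counts per 1e+06 UMIs (CPM), either pooled over the 188 cells or per animal. A cell barcode of the Muscle library also occurred 43 times in the passage 0 library, 24 times at passage 2 and 26 times each at passages 5 and 8. Of the 188 lymphocyte barcodes 2 were found among the kept cells of passage 2 and 1 among those of passage 8.

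Some lymphocytes held RNA of other muscle cells. Summed over marker lists of fibro-adipogenic progenitors (FAPs), vascular endothelial, mural and satellite cells, the median was 1 UMI per lymphocyte, but 17 cells from 8 animals held at least 10 such UMIs and the highest held 453. These 17 cells had a median of 6431 UMIs, against 4321 in the other 171 lymphocytes, and 13 of the 17 held CD3 UMIs. Genotypes separate doublets of different animals only, and no other doublet caller was run. Markers of muscle fibres, which are too large to enter a droplet, gave a UMI of ACTA1 (skeletal muscle actin) in 28.7% of lymphocytes and in 75.9% of FAPs. Summed over the fibre list, lymphocytes ranged from 163 to 5744 CPM between animals, and in animal 4 a single cell held 297 of 311 fibre UMIs. The part of this RNA in the values below was not tested beyond the counts given without the 17 cells.

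T cell markers were common in these cells, MS4A1 and CD79B were at 0, and CD79A was found in few cells. PTPRC (CD45, the surface phosphatase shared by white blood cells, ENSBTAG00000023144) had at least 1 UMI in 172 of 188 lymphocytes, or 91.5% (95% exact binomial interval 86.5% to 95.1%), against 6.89% of the other cells and 0.487% of FAPs, which should lack it. Among the other immune cells, it had a UMI in 62.8% of monocytes and macrophages (247 CPM) and 51.0% of neutrophils (486 CPM). CD3E (ENSBTAG00000015710) had a UMI in 141 cells, or 75% (68.2% to 81.0%), against 0.428% of the other cells and 0.487% of FAPs. MS4A1 (ENSBTAG00000004580) had none in 188 cells, which allows a share of cells with a UMI of up to 1.6%. Intervals and limits of this kind cover counting error only, and they bound cells with a captured UMI, not cells that express a gene.

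Per animal, PTPRC lay between 406 and 859 CPM (median 655) in lymphocytes and between 19.2 and 59.8 CPM (median 34.9) in the other cells. CD3E lay between 456 and 1123 CPM (median 747) in lymphocytes and between 0 and 6.73 CPM (median 1.26) in the rest. The ranges over animals did not overlap for either gene. Since the cells had been named from clusters of the same data, this is a description and no separate support. MS4A1 was at 0 in the lymphocytes of all 10 animals.

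**Figure D1:**
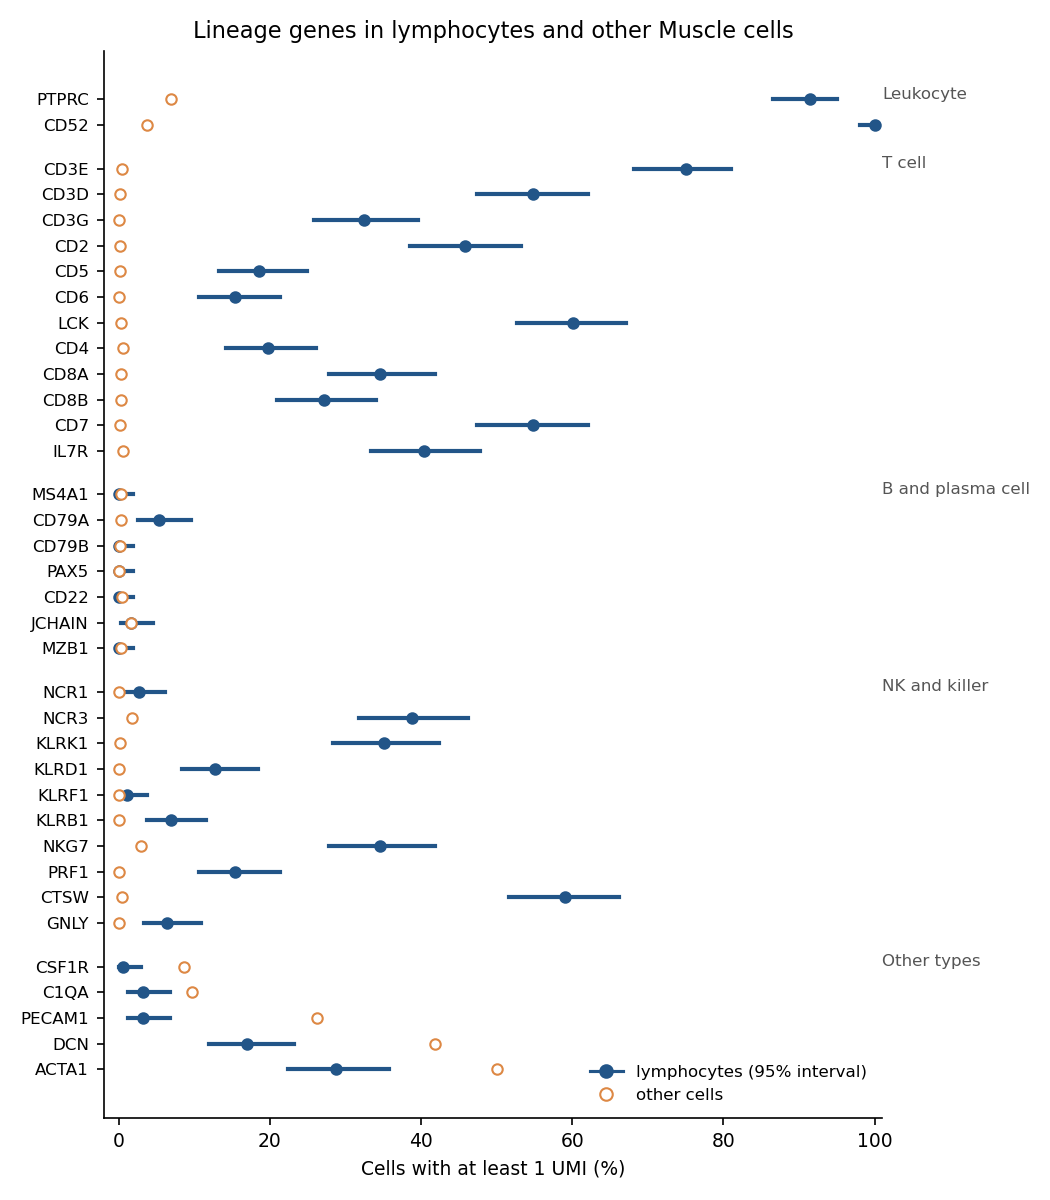
Share of cells with at least 1 UMI (x axis, percent) of lineage genes (y axis), in the 188 lymphocytes (filled points, lines are 95% exact binomial intervals) and in the 4207 other Muscle cells (open points). T cell genes lie to the right in lymphocytes, MS4A1, CD79B, CD22 and PAX5 lie at 0, and NCR1 and KLRF1, which mark NK cells, are at 2.66% and 1.06%. The NK receptors NCR3, KLRK1 and KLRD1 are at 38.8%, 35.1% and 12.8%.

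Of the 17 B cell genes measured, 7 had any UMI in lymphocytes. MS4A1, CD22, CD79B, PAX5, VPREB3, FCRLA, SPIB, POU2AF1 and TNFRSF13C were at 0, and so were the plasma cell genes MZB1, SDC1 and TNFRSF17. CD79A, a signalling chain of the B cell receptor, had 12 UMIs in 10 lymphocytes (5.32%), against 0.309% of the other cells and 2.98% of the monocytes and macrophages. BANK1, an adaptor of B cell receptor signalling, had 28 UMIs in 20 lymphocytes (10.6%), against 2.4% of the other cells and 22.3% of the monocytes and macrophages. Of the list 2 genes were more than 2-fold higher in lymphocytes than in all other cells and 2 more than 2-fold lower, where 3.4% of all 16722 genes were higher and 12.2% lower, so the lower count is close to the background. The list summed to 28.3 to 111 CPM in lymphocytes (median 77.1) and 70.9 to 170 CPM in the other cells (median 117), and it was higher in lymphocytes in 2 of 10 animals.

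The cells with 3 or more UMIs of B cell genes had another name. All 31 UMIs of MS4A1 in the kept Muscle cells were in 10 cells named monocytes and macrophages. Of the cells with at least 3 UMIs over MS4A1, CD79A, CD79B, PAX5 and CD22, all 12 were among the 403 monocytes and macrophages, from 6 animals, and none was a lymphocyte. At 2 or more UMIs there were 17 monocytes and macrophages and 2 lymphocytes. These 5 genes and the limit of 3 UMIs were chosen after the values had been seen. The 12 cells had no UMI of C1QA, C1QB, C1QC or CSF1R, genes of macrophages that had UMIs in 318, 310, 310 and 351 of the other 391 cells of that name. They held CD74, the invariant chain of MHC class II, at 6236 CPM against 10054 CPM in the other monocytes and macrophages, and CD52 at 2370 CPM against 124 CPM.

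Lymphocytes were found in every animal. They made up between 1.63% (animal 4, 12 of 735 cells, interval 0.846% to 2.83%) and 9.05% (animal 9, 21 of 232 cells, interval 5.69% to 13.5%) of an animal's cells, with a mean of 4.8% ± 2.02 (SD, n = 10) and a median of 4.25%. Animal 1, at 7.23%, and animal 9 were the highest. Between 10 and 30 lymphocytes were recovered per animal. Among the cells named as immune (lymphocytes, monocytes and macrophages, and neutrophils), lymphocytes made up 15.4% to 51.2%, with a mean of 33.4% ± 11.4 (SD, n = 10).

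**Figure D2:**
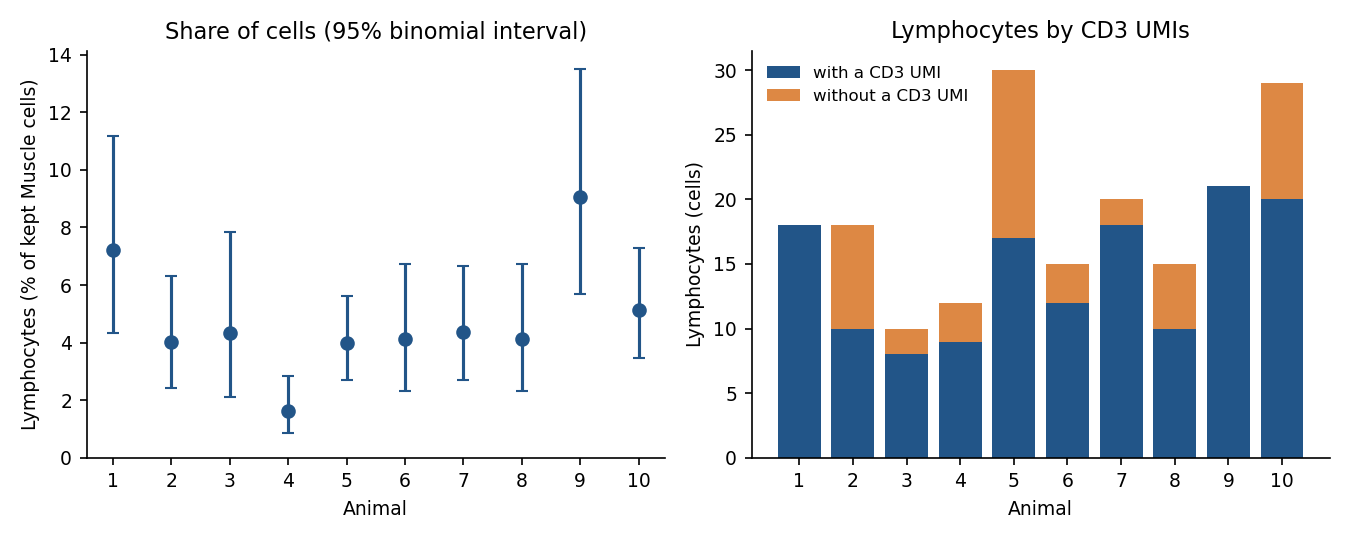
Left, lymphocytes as a percentage of the kept Muscle cells of each of the 10 animals, with 95% exact binomial intervals; right, number of lymphocytes per animal with (blue) and without (orange) a UMI of CD3D, CD3E or CD3G. The share runs from 1.63% in animal 4 to 9.05% in animal 9, and animals 1 and 9 had no lymphocyte without a CD3 UMI.

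Lymphocytes were next described against all other Muscle cells. The cells had been clustered on these genes, so the comparison carries no test. Of 16722 genes with a UMI in kept Muscle cells, 569 were more than 2-fold higher in lymphocytes (3.4%) and 2045 more than 2-fold lower (12.2%), on the scale of log2(CPM + 10) of the pooled UMIs, and the median log2 ratio over all genes was -0.14. These shares of all genes are the background for the counts by gene list below. Without the 17 cells with RNA of other types the counts were 595 and 2314. With a pseudocount of 1 CPM in place of 10 they were 1149 and 5077, and the log2 ratio of CTSW, for one, was 8.69 in place of 6.50.

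Leading genes were taken among those with at least 50 UMIs in lymphocytes that were higher there in all 10 animals. The 20 with the highest log2 ratio, from 6.69 down to 4.87, comprised 12 genes with a symbol and 8 without. The 2 highest, ENSBTAG00000009943 (1149 CPM in lymphocytes, 1.2 CPM in the rest) and ENSBTAG00000027204 (1243 and 2.64 CPM), have no symbol in the files. CTSW (cathepsin W, a protease of killer cells) stood at 1028 CPM in lymphocytes and 1.5 CPM in the other cells, a log2 ratio of 6.50. CD52, a small surface glycoprotein of lymphocytes, stood at 4033 and 35.5 CPM and had UMIs in all 188 cells. UBD, an interferon-inducible ubiquitin-like protein, stood at 1626 and 16.2 CPM and had UMIs in 95.2% of lymphocytes. The rest of the named genes were CD3E, IL2RB (a chain of the IL-2 and IL-15 receptors), HCST (the DAP10 adaptor), 1 copy of GIMAP7, CD69, CD7, IL7R, HOPX and the chemokine XCL1.

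These genes varied unequally between animals. CD52 lay between 2876 and 4747 CPM in the lymphocytes of the 10 animals (median 4139), and at most 73.1 CPM in the other cells of an animal. CTSW lay between 534 and 1904 CPM (median 1013), and at most 5.4 CPM in the other cells. XCL1 lay between 42.7 and 653 CPM (median 302) and IL7R between 141 and 1653 CPM (median 281), which is a wider spread than that of CD52.

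All 12 pan-leukocyte genes were more than 2-fold higher in lymphocytes and higher in all 10 animals, with a median log2 ratio of 3.35 over the list. RAC2, a GTPase of blood cells, stood at 709 against 21.9 CPM and CORO1A, an actin-binding protein of leukocytes, at 761 against 65.1 CPM. Of the actin and motility list, 11 of 15 genes were past 2-fold and none below. All 7 measured GIMAP genes, a family of small GTPases of lymphocytes, were past 2-fold, with a median log2 ratio of 4.49; GIMAP7 has several near-identical rows in the gene table, between which reads may have been divided. Ribosomal protein genes took up 31.3% of lymphocyte UMIs and 18% of those of the other cells.

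All 4 measured genes of the CD3 list and 19 of 21 genes of T cell coreceptors and signalling were past 2-fold. LCK, the kinase that starts receptor signalling, was at 189 CPM, CD2, an adhesion receptor, at 147 CPM, CD8A at 138 CPM and CD4 at 91.7 CPM, against 0.749, 0.549, 0.898 and 1.5 CPM in the rest. THEMIS and BCL11B, with 5 and 9 UMIs, did not pass. CD8A, the more common coreceptor, lay between 79.9 and 258 CPM over the animals and CD4 between 10.6 and 235 CPM. Of the transcription factors 12 of 21 were past 2-fold, among them ETS1 (750 against 180 CPM) and TCF7 (121 against 2.3 CPM), and 2 were below, both rows of ZEB2.

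Most genes of tissue-resident lymphocytes were higher than in the other cells. Of the 15 residency genes 9 were past 2-fold higher and 2 lower, with a median log2 ratio of 1.47. Of all 16722 genes 3.4% were higher and 12.2% lower. The 4207 other cells held only 403 monocytes and macrophages and 51 neutrophils. This comparison therefore cannot tell resident from other lymphocytes. CXCR4, a chemokine receptor, stood at 1357 CPM against 144 CPM, RGS1, which dampens chemokine receptor signals, at 945 against 186 CPM, HOPX at 828 against 18 CPM and CD69 at 461 against 3.19 CPM. CXCR6 stood at 55.5 CPM and ZNF683 (Hobit) at 39.5 CPM, against 0.0998 and 0.15 CPM in the rest. ITGAE (the CD103 integrin chain) had 6 UMIs and ITGA1 was lower than in the rest, at 25.6 against 76.6 CPM. NR4A1, a gene of the same list that is also an immediate early gene, was lower as well, at 118 against 395 CPM.

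S1PR1 had UMIs in 8.51% of lymphocytes and stood at 37.3 CPM against 202 CPM in the other cells, which include endothelial cells. KLF2, a transcription factor of recirculating T cells, had UMIs in 5.32% and CCR7 (the lymph node homing receptor) in 1.06% of lymphocytes, or 2 cells. These genes belong to a list of 10 genes of naive and central memory cells, of which 4 (IL7R, TCF7, CD27 and LEF1) were past 2-fold higher and S1PR1 alone past 2-fold lower, with a median log2 ratio of 0.55. The list summed to 661 CPM in lymphocytes and 285 CPM in the rest and was higher in 10 of 10 animals.

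Several genes of killer cells were high, and granzyme B was at 0. Of the 13 measured genes of cytotoxic granules 9 were past 2-fold higher and 2, LAMP1 and CTSC, past 2-fold lower. SRGN (serglycin, the granule proteoglycan) stood at 2691 CPM against 603 CPM in the other cells, NKG7 at 187 against 9.88 CPM, CST7 at 116 against 0.599 CPM, FASLG (Fas ligand) at 67.2 against 0.249 CPM and PRF1 (perforin) at 42.7 against 0.0998 CPM. NKG7 also had UMIs in 29.3% of monocytes and macrophages (73.6 CPM), against 34.6% of lymphocytes. GZMB had no UMI in lymphocytes, GZMM had 12 and GZMK had 10, all in 1 cell. GNLY (granulysin, a pore-forming peptide) had 211 UMIs, but in only 12 cells of 5 animals.

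Among secreted factors, LTB (lymphotoxin beta) stood at 428 CPM, TNFSF14 (LIGHT) at 386 CPM, CCL5 at 340 CPM, FLT3LG at 296 CPM and XCL1 at 286 CPM, each higher than in the other cells in all 10 animals. IFNG had 43 UMIs in 12.8% of lymphocytes, CSF2 (GM-CSF) 79 UMIs in 19.7%, IL13 31 UMIs in 6.38% and IL4 14 UMIs in 5.32%. IL10 had no UMI in lymphocytes and stood at 19.3 CPM in the other cells. Of the 12 genes of regulatory and exhausted T cells 8 were past 2-fold, led by TNFRSF18 (GITR) at 282 CPM, IKZF2 (Helios) at 83.2 CPM and IL2RA (CD25) at 70.4 CPM. FOXP3, the factor that defines regulatory T cells, had no UMI in 188 cells. WC1 genes mark many bovine gamma delta T cells and are near-identical copies, between which reads may have been divided. The row WC1 had no UMI in kept Muscle cells, WC1.3 had 11 UMIs in lymphocytes and 1 in the rest, and the related CD163L1 had 4 UMIs in 3 lymphocytes.

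Lists of myeloid cells were lower or mixed in direction against all other Muscle cells. Of the monocyte and macrophage genes 13 of 14 were more than 2-fold lower, CSF1R with 1 UMI and LYZ and MSR1 with none. The exception was FCER1G (the Fc receptor gamma chain), at 348 CPM in lymphocytes and 213 CPM in the rest. FCER1G was lower in the lymphocytes of animals 1 (149 against 257 CPM) and 6 (86.1 against 150 CPM). Monocytes and macrophages held it at 1561 CPM and neutrophils at 1863 CPM. TYROBP (DAP12), a signalling adaptor of myeloid and NK cells, stood at 12.8 against 181 CPM. Of the neutrophil genes 5 of 12 were lower and none higher. Of the dendritic cell genes 3 of 13 were higher and 2 lower, and of the mast cell and basophil genes 3 of 8 were higher and 1 lower. Over all 16722 genes 3.4% were higher and 12.2% lower, so the lower counts of these 2 lists are near that share. None of the higher genes was higher in every animal. The summed dendritic cell list was higher in lymphocytes in 1 of 10 animals and the mast cell and basophil list in 6. MHC class II genes were lower in all cases that passed 2-fold (6 of 10), with CD74 at 89.6 against 1753 CPM. Of MHC class I presentation genes 7 of 12 were higher, with B2M (beta-2-microglobulin) at 10160 against 4157 CPM, PSMB9 at 351 against 56.9 CPM and UBD as above.

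Immediate early genes, which respond to stimuli within minutes, were mostly less abundant in lymphocytes than in the rest. Of 23 immediate early and stress genes 11 were more than 2-fold lower and 2 higher, with a median log2 ratio of -0.91. EGR1 stood at 122 against 1041 CPM, JUN at 1206 against 4082 CPM and FOS at 562 against 1810 CPM, each lower in all 10 animals. TNFAIP3 (A20, a brake on NF-kappa-B) and NR4A2 were higher in all 10 animals, at 301 against 58.5 CPM and 205 against 50.4 CPM. Interferon-stimulated genes showed a median log2 ratio of 0.04, with 3 of 21 past 2-fold higher and 2 lower. Of the 19 proliferation genes none was past 2-fold higher and 3 were lower. Both lower counts are near the 12.2% of all genes, and nothing is read from them. MKI67 had 5 UMIs in 3 lymphocytes and TOP2A had 3 UMIs.

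The lymphocytes divided into cells with several CD3 UMIs and cells with none. Of the 188 cells 143 (76.1%, interval 69.3% to 82.0%) held at least 1 UMI of CD3D, CD3E or CD3G, and 45 held none. Only 6 cells held 1 such UMI and 3 held 2, whereas 134 held 3 or more; the median of cells with a UMI was 6 and the highest cell had 16. The 45 cells without CD3 UMIs were deeper, with a median of 6350 UMIs against 4234 UMIs. In cells thinned to 1000 UMIs the share with a CD3 UMI was 58.5%, and it was 0.197% in the other cells. Without the 17 cells with RNA of other types the share was 76.0%.

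**Figure D3:**
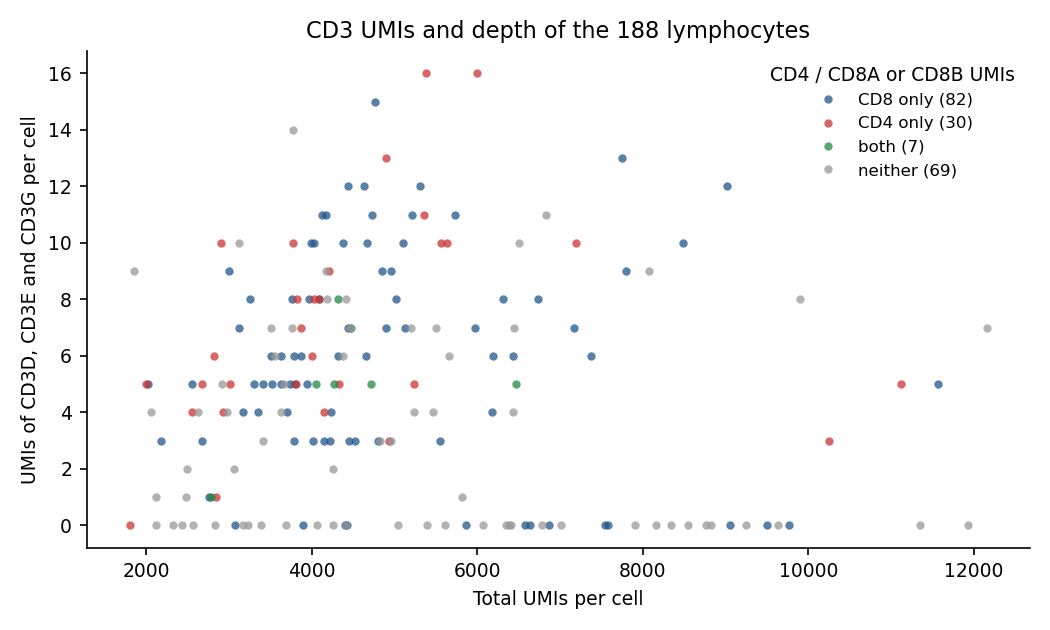
UMIs of CD3D, CD3E and CD3G (y axis) against total UMIs (x axis) of each of the 188 lymphocytes, coloured by UMIs of CD4 and of CD8A or CD8B. The 45 cells at 0 spread over the whole range of depth, and only 9 cells lie at 1 or 2 CD3 UMIs.

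The share of lymphocytes with a CD3 UMI ranged from 55.6% (animal 2, 10 of 18 cells) to 100% (animals 1 and 9, 18 and 21 cells), with a mean of 77.3% ± 16 (SD, n = 10). In animal 5 it was 56.7% (17 of 30 cells, interval 37.4% to 74.5%). The interval of animal 9 (83.9% to 100%) did not overlap those of animals 2 (30.8% to 78.5%) and 5. These are counting intervals of cells within an animal, and the age of the animals was not compared here.

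Cells with CD3 UMIs were divided by their coreceptors. CD8A or CD8B without CD4 was found in 69 of 143 (48.3%), CD4 alone in 29 (20.3%), both in 7 (4.9%) and neither in 38 (26.6%), and the first 2 classes had cells in all 10 animals. A coreceptor without a UMI may have been missed at this depth.

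The CD4 and CD8 cells differed in many other genes. These genes were chosen after their values had been seen and are a description. CD4 UMIs were found in 12 lymphocytes of animal 5 and in 2 to 5 of each other animal. These include 7 cells that also held CD8 UMIs and 1 cell without CD3, which the 29 CD4 cells compared below leave out. Animals 2, 4 and 8 each had a single cell among the 29. The counts of animals below therefore rest on few CD4 cells per animal, and on a single cell in these animals. CTSW had UMIs in 61 of 69 CD8 cells and in 1 of 29 CD4 cells, and its share was lower in CD4 cells in 10 of 10 animals. CD7, a surface glycoprotein of T and NK cells, had UMIs in 61 CD8 cells and 4 CD4 cells, also lower in CD4 cells in 10 of 10 animals. NKG7 (40 and 0 cells), KLRK1 (NKG2D, an activating receptor, 30 and 0 cells), FCER1G (34 and 0 cells) and PRF1 (18 and 0 cells) had no UMI in CD4 cells, which allows a share of CD4 cells with a UMI of up to 10.3%; their shares were lower in CD4 cells in 9 of 10 animals each.

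In the other direction, GPR183 (EBI2, an oxysterol receptor that guides cell position) had UMIs in 25 of 29 CD4 cells and in 9 of 69 CD8 cells, higher in CD4 cells in 10 of 10 animals. IL7R had UMIs in 25 CD4 cells and 14 CD8 cells, higher in CD4 cells in 9 of 10 animals. CD5 (13 and 8 cells), CCR4 (8 and 4 cells), ICOS (7 and 2 cells) and CD28 (6 and 2 cells) were also found in larger shares of CD4 cells. Of the 211 UMIs of GNLY 135 were in 5 CD4 cells, which came from 2 animals only, and 8 UMIs were in 2 CD8 cells of 1 animal. CD69, CXCR4, RGS1 and HOPX had UMIs in more than 2 in 3 cells of both classes (73.9% to 100%).

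**Figure D4:**
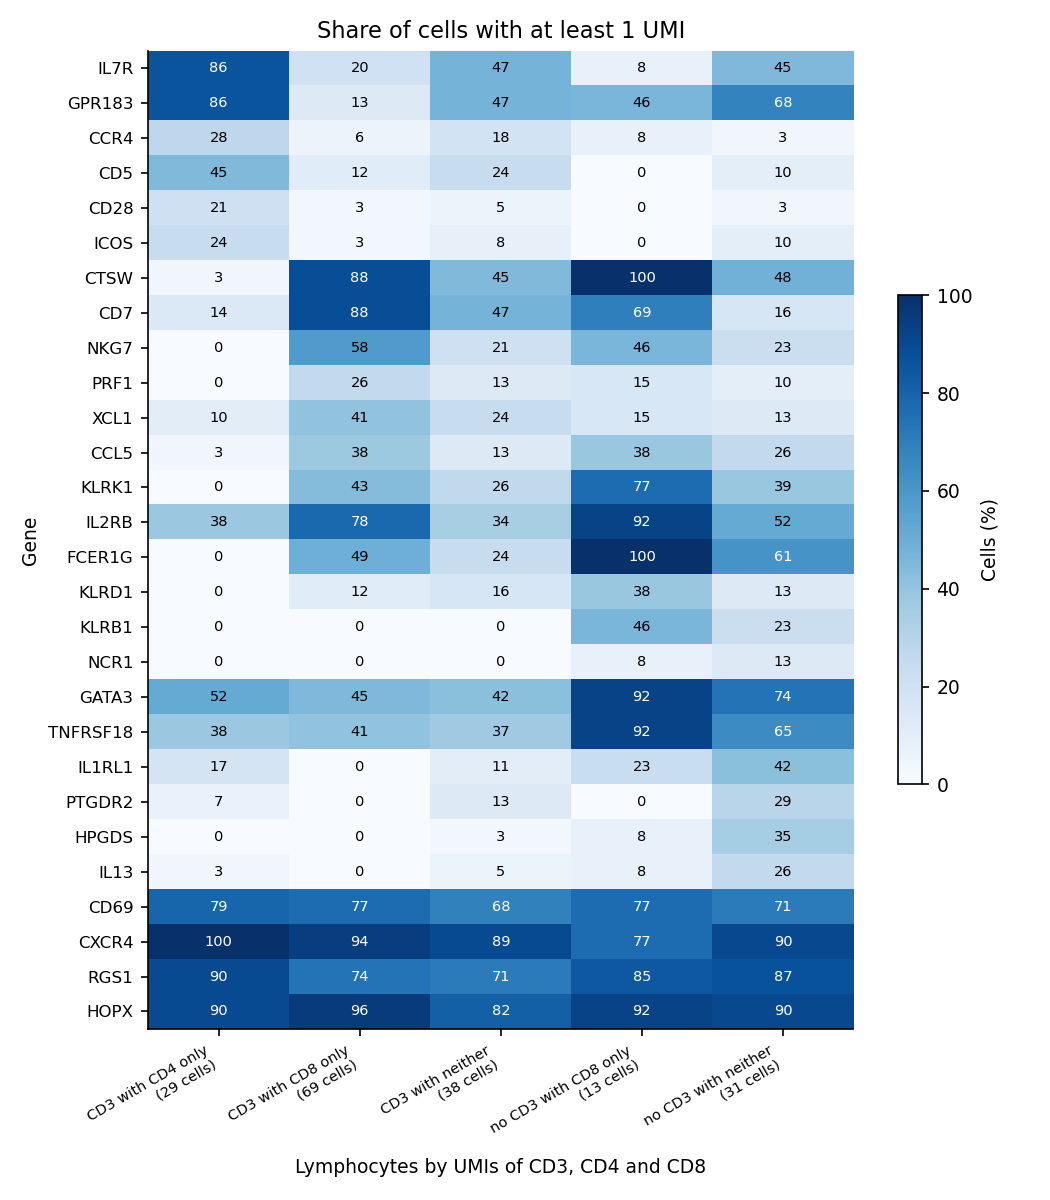
Percentage of cells with at least 1 UMI (colour and number) of 28 genes in 5 classes of lymphocytes, by UMIs of CD3D, CD3E or CD3G, of CD4, and of CD8A or CD8B. CTSW, CD7 and NKG7 fill the CD8 column, IL7R and GPR183 the CD4 column, and KLRB1 and NCR1 have UMIs only in the 2 columns without CD3.

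The 45 cells without CD3 UMIs held lymphocyte genes and were found in 8 of 10 animals. Of the 45 cells 43 held UMIs of at least 1 of PTPRC, CD7, IL2RB, CTSW and HCST, of which PTPRC is shared by white blood cells. CTSW and IL2RB each had UMIs in 28 of the 45 cells. UMIs of CD2, CD5, CD6, LCK or CD247 were found in 34 of the 45, against 136 of the 143 cells with CD3. The share with CD2 was lower without CD3 in 8 of 8 animals and that with CD5 in 7 of 8. The share with CD247 was lower in 6 and higher in 2 of the 8, and those with CD6 and LCK were lower in 5 and higher in 3. These 8 animals had between 2 and 13 cells without CD3 each, so such counts rest on few cells. CD8A or CD8B had UMIs in 13, and in 10 of these it was CD8A without CD8B, against 28 of the 76 CD8 cells with CD3. CD4 had a UMI in 1 cell.

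KLRB1 (CD161, a C-type lectin of NK and innate-like cells) had 26 UMIs in 13 of the 45 cells without CD3 and none in the 143 cells with CD3. NCR1 (NKp46) had 7 UMIs in 5 cells and KLRF1 3 UMIs in 2 cells, all of them without CD3. Counted together, these 3 receptors had UMIs in 14 of 45 cells of 7 animals and in 0 of 143 cells, which allows a share of cells with a UMI of up to 2.1% at this depth. They were picked after the values had been seen, so the 0 follows in part from the choice. The NK receptors NCR3, KLRK1 and KLRD1 were found in both classes. They had UMIs in 50, 44 and 15 of the 143 cells with CD3 and in 23, 22 and 9 of the 45 without. FCER1G had UMIs in 32 of 45 cells without CD3 (71.1%) and 45 of 143 with CD3 (31.5%). The share was higher without CD3 in 8 of the 8 animals that had both classes, some with only 2 or 3 cells without CD3.

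Genes of type 2 immunity were found in larger shares of the cells without CD3, which carries no test. The cells without CD3 were also deeper (a median of 6350 against 4234 UMIs), and deeper cells show a UMI more often. The part of depth in these shares, and in the receptor shares above, was not tested. Pooled CPM without and with CD3 were 139 and 16.6 for IL1RL1, 98.8 and 1.51 for HPGDS, 58.5 and 15.1 for PTGDR2, 95.1 and 7.53 for IL13, and 7.32 and 18.1 for IL4. IL1RL1 (the IL-33 receptor) had UMIs in 16 of 45 cells (35.6%) against 9 of 143 (6.29%), HPGDS (a prostaglandin D synthase) in 12 against 1, PTGDR2 (CRTH2, a receptor for prostaglandin D2) in 9 against 7 and IL13 in 9 against 3. IL4 was not among them, with UMIs in 2 cells without CD3 and 8 with CD3. At least 2 of these 5 genes had UMIs in 15 of 45 cells without CD3 (33.3%, 6 animals) and in 3 of 143 with CD3 (2.1%, 2 animals). Of the 20 cells without CD3 that held at least 1 of the 5 genes, 18 held GATA3, a transcription factor of T helper 2 and group 2 innate lymphoid cells, and 4 held CPA3 or MS4A2, genes of mast cells. GATA3 had UMIs in 35 of all 45 cells without CD3 (77.8%) and in 65 of 143 with CD3 (45.5%). The 3 receptors KLRB1, NCR1 and KLRF1 overlapped with the type 2 genes in 4 cells without CD3. Of the other cells without CD3, 10 held only these receptors, 16 only the type 2 genes, and 15 neither. The 5 genes, like the 3 receptors, were picked after seeing the values.

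A fit across all genes compared the cells without CD3 UMIs with those with them, in sums per animal. The 4 animals with at least 4 cells of each class (animals 2, 5, 8 and 10) entered, with the animal as a block, and CD3D, CD3E and CD3G were left out. Of 659 genes tested by edgeR's quasi-likelihood test, 3 were called higher without CD3 (0.455%) and 11 lower (1.67%), at an adjusted p below 0.05 and a more than 2-fold change. All 14 moved the same way in 4 of 4 animals, which their calling in these same animals makes likely and which is no separate support. An unadjusted p below 0.05 was found for 144 genes.

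Genes of MHC class I presentation were among those that fell. B2M stood at 12977, 14794, 10341 and 10600 CPM in the cells with CD3 of animals 2, 5, 8 and 10 and at 5632, 5504, 5407 and 6748 CPM in those without, a log2 fold change of -1.07 ± 0.11 (SE) with an edgeR adjusted p of 0.0015. The 2 classes did not overlap, which the calling of B2M in these same animals makes likely and which is no separate support. UBD stood at 3032, 2305, 1940 and 1983 CPM with CD3 and at 777, 977, 672 and 797 CPM without. Its log2 fold change was -1.51 ± 0.17 (SE, edgeR adjusted p = 0.0015). The classes did not overlap for UBD either, which is likewise no separate support. BOLA, a class I heavy chain, fell as well (-1.31 ± 0.15, edgeR adjusted p = 0.00186), but its levels in cells with CD3 ran from 3581 to 16845 CPM between animals. BOLA has close paralogs, between which reads may have been divided. All 7 tested genes of the class I list were lower without CD3, 3 of them called. Of all 659 genes tested, 364 were lower and 1.67% were called lower. The median log2 fold change was -0.90 in the list against -0.06 over all genes tested. The list had been chosen with earlier results of these data known, so its counts are a description.

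The other called genes with a symbol that fell were PVRIG (an inhibitory receptor, 245 against 21.6 CPM on average, log2 fold change -4.00 ± 0.70), FYB1 (an adaptor of T cell receptor signalling, 238 against 48.1 CPM, -2.52 ± 0.47) and S100A4 (7010 against 3542 CPM, -1.08 ± 0.17). The other 5 that fell have no symbol, and all 5 are among the 20 leading genes of lymphocytes; ENSBTAG00000034609 and ENSBTAG00000027204 stood at 909 against 150 CPM and 2163 against 677 CPM. Among the 3 genes that rose were PDCD4 (a translation inhibitor, 273 against 813 CPM, 1.55 ± 0.22) and C15H11orf96 (76.1 against 248 CPM, 1.61 ± 0.34). The SE of this fit were derived from the fold change and F value of edgeR's test on 4 animals. They are errors of the model and do not measure the spread between animals. Of 73 ribosomal protein genes, 71 had a log2 fold change above 0, with a median of 0.24, and 3 had an edgeR adjusted p below 0.05. Of all 659 genes tested, 364 lay below 0, with a median of -0.06.

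The fit rested on few cells. With 1 animal left out, 5 to 17 genes were called: 6 without animal 2, 5 without animal 5, 17 without animal 8 and 9 without animal 10. With animals of at least 2 cells of each class (8 animals) 7 were called, and UBD, B2M and BOLA were not. Their log2 fold changes were then -1.002, -0.70 and -0.90 (edgeR adjusted p = 0.0614, 0.0734 and 0.0607), so B2M and BOLA were also under 2-fold. After thinning to 1000 UMIs before the split, 127 genes could be tested and UBD alone was called. That split put 83 cells in the class without CD3 UMIs, against 45 at full depth, so the class then held cells that have CD3 UMIs, and depth and class cannot be told apart in it. There B2M changed by -0.31 and BOLA by -0.39 on the log2 scale (edgeR adjusted p = 0.569 for both, the highest over their alternatives). Without the block BOLA changed by -1.37 with a larger SE (0.57 against 0.15, edgeR adjusted p = 0.274), and without animal 5 the change of B2M was -0.97, under 2-fold.

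Several calls were lost when 1 of the 4 animals was left out, in most cases with a fold of about the same size. UBD and BOLA kept their call in all 4 such fits, and ENSBTAG00000034609 was called in all 9 alternatives that tested it. FYB1 changed by -2.35, -2.61 and -2.22 on the log2 scale without animal 2, 5 or 10, against -2.52 with all 4 animals (edgeR adjusted p = 0.0864, 0.151 and 0.116). PVRIG changed by -4.25 without animal 2 and -3.63 without animal 10 (edgeR adjusted p = 0.0535 and 0.0673), and by -5.18 without animal 8, where it was called. PDCD4 changed by 1.52 without animal 5 and 1.45 without animal 10 (edgeR adjusted p = 0.059 and 0.0522). S100A4 changed by -1.06 without animal 2 and -1.01 without animal 8 (edgeR adjusted p = 0.0534 and 0.107), by -0.92 without animal 10, which is under 2-fold, and by -1.01 without the block (edgeR adjusted p = 0.274). C15H11orf96 changed by 1.44 without animal 2, 1.69 without animal 10 and 1.56 without the cells with RNA of other types (edgeR adjusted p = 0.185, 0.124 and 0.0867). ENSBTAG00000027204 changed by -1.25, -1.61 and -1.41 without animal 2, 5 or 8 (edgeR adjusted p = 0.132, 0.171 and 0.168).

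**Figure D5:**
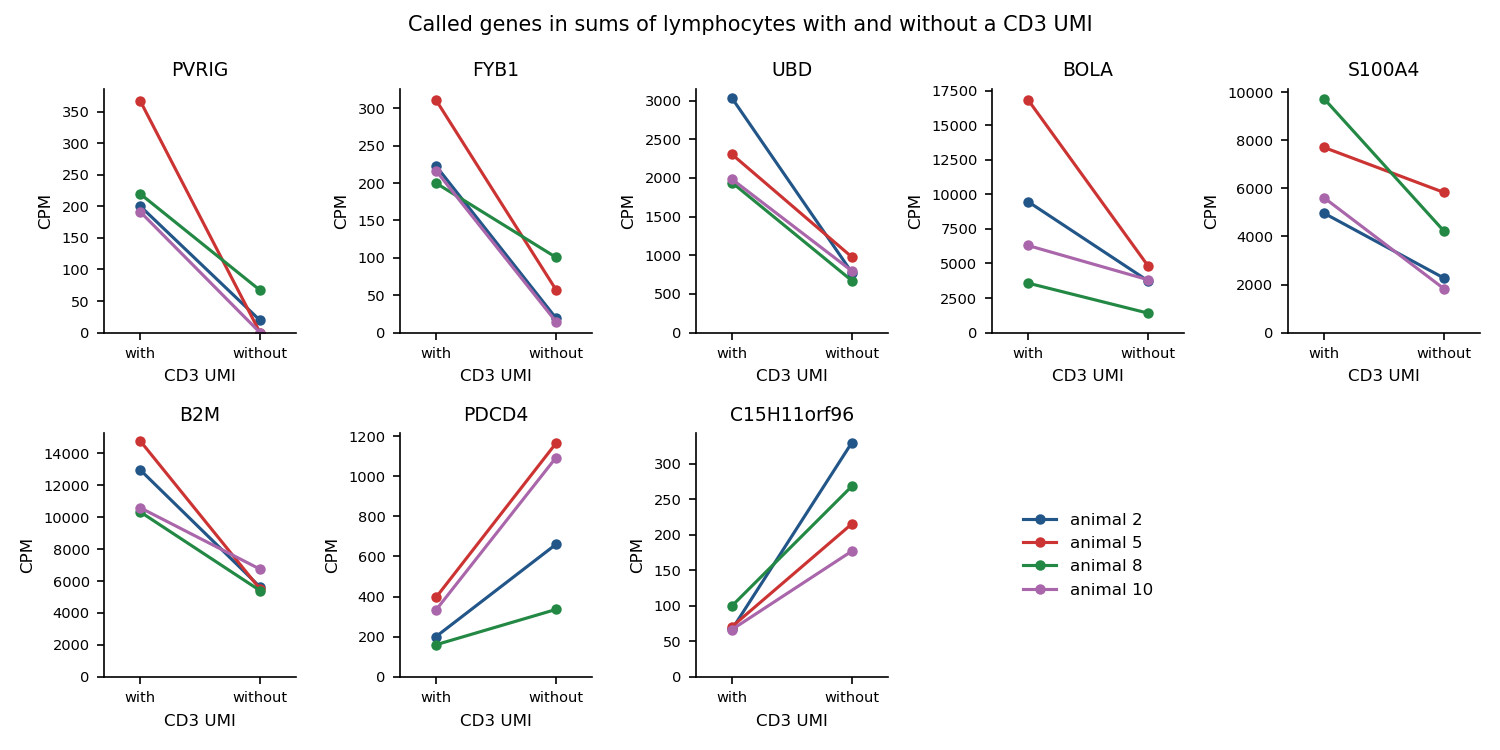
CPM in the sums of lymphocytes with and without a CD3 UMI (x axis) of animals 2, 5, 8 and 10 (lines), for called genes described in the text, each panel from 0 on a linear scale. Every line falls for PVRIG, FYB1, UBD, BOLA, S100A4 and B2M and rises for PDCD4 and C15H11orf96, which their calling in these same animals makes likely.

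Marker genes of the classes did not pass in this fit, although some did under other settings. FCER1G had a log2 fold change of 1.04 ± 0.45 (SE, 227 with CD3 and 479 CPM without, edgeR adjusted p = 0.226), TNFRSF18 of 0.86 ± 0.36 (adjusted p = 0.214) and CD7 of -1.26 ± 0.41 (adjusted p = 0.138). GATA3 stood at 228 with and 295 CPM without CD3 (a log2 fold change of 0.47 ± 0.31, edgeR adjusted p = 0.44). CTSW stood at 1375 and 821 CPM, -0.48 ± 0.61. CD7 passed with at least 2 cells in both classes (-1.62, edgeR adjusted p = 0.0497) and with no filter on low counts (-1.30, 0.0314), and over its alternatives the adjusted p reached 0.3. TNFRSF18 passed without animal 8 (1.26, edgeR adjusted p = 0.0354), and over its alternatives the adjusted p reached 0.556. KLRB1, IL1RL1, IL13, HPGDS and PTGDR2 did not pass the filter on low counts. With no such filter IL1RL1, picked after seeing its values, was called higher without CD3 (2.68, edgeR adjusted p = 0.00667). XCL1 (-2.82, 7.88e-07) and CD4 (-4.89, 6.28e-06) were called lower. The p values of this fit cannot be set beside those of the main fit. For B2M the edgeR p was 1.25e-16 with an SE of 0.132, against 5.39e-06 with an SE of 0.114 in the main fit. XCL1 also passed without the 17 cells with RNA of other types (-2.50, edgeR adjusted p = 0.0197) but not with at least 2 cells in both classes (-0.98, 0.463).

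Killer and NK gene levels of the 2 classes were compared as summed lists in the same 4 animals. The cytotoxic granule list stood at 5017, 5742, 5681 and 4250 CPM in cells with CD3 of animals 2, 5, 8 and 10 and at 3224, 5476, 4467 and 5079 CPM without. The mean difference was -0.20 ± 0.38 (log2 of CPM + 10, SD, n = 4), lower in 3 of 4 animals (exact sign-flip permutation test, 2-sided, p = 0.375). The NK list stood at 2163, 1273, 3220 and 1783 CPM with CD3 and at 2097, 2472, 1578 and 1048 CPM without, a mean difference of -0.22 ± 0.88 (SD, n = 4, exact p = 0.625). With 4 animals the smallest p is 0.125, so this design cannot reach 0.05. With 8 animals, for which the smallest p is 0.0078, the differences were -0.11 ± 0.56 (exact p = 0.578) and 0.027 ± 0.72 (exact p = 0.922), so neither difference was larger than the spread between animals.

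CD3 transcripts were scarce in the kept cells with other names. Of the 4207 other kept cells 21 held a CD3 UMI and 7 held 3 or more, 4 of the 7 named vascular endothelial cells and 2 FAPs. In the culture libraries, 51 of 9591 kept cells at passage 0, 40 of 8966 at passage 2, 19 of 10405 at passage 5 and 2 of 2772 at passage 8 held a CD3 UMI. Only 2, 0, 1 and 0 of them held 2 or more, none of these with a UMI of PTPRC.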

How the data were processed

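Raw UMI counts per gene and barcode were deposited by the authors, made with Cell Ranger 6.0.1 from reads on genome build ARS-UCD1.2 (per the submitters' processing notes). The authors also deposited cell tables with demuxlet class, animal, cell type and the percent of mitochondrial UMIs; their names, animals and quality control were taken as given, and 19 of the columns of the 2 tables used were not used. The table of corrected values for all cells was not used, since its values are not raw counts.

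The members and gene lists were chosen with earlier results of these data known. Counts were summed per animal and class, and CPM were taken from total UMIs. Lymphocyte sums held 42591 to 187847 UMIs per animal. Lymphocytes were compared with the other cells without a test. Sums with and without a CD3 UMI were fitted in edgeR 4.0.16 (quasi-likelihood F test, robust, TMM, filterByExpr, Benjamini-Hochberg) with the animal as a block; same-numbered sums come from the same animal, and their deviations from the class means correlated at 0.089 to 0.195. Alternatives were DESeq2 1.42.0, no filter, other cell minimums, no block, thinning to 1000 UMIs, and leaving out animals. List sums were compared by exact sign flips. Intervals are exact binomial (scipy 1.17.1).

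Named genes were the label's markers, up to 6 of each list by level plus defining markers at 0, the 20 leading genes (at least 50 UMIs, higher in every animal), and up to 10 called genes each way. Other genes of the lists, and genes of the CD4, CD8 and CD3-negative classes were chosen after their values were seen. In simulated sums for the comparison by CD3, 596 genes passed the filter on low counts. Among these edgeR recovered 91 of 91 genes changed by a log2 of 2 and 98 of 98 changed by 3. It called 5 of 407 unchanged genes. Changed genes that the filter removed are not in these counts. The simulated counts had the same dispersion for every gene and no difference between animals other than total UMIs. This recovery therefore does not carry over to the genes of the data that vary more. A few genes are not reported here. Coordinates were left out, since the reference table was built on a different assembly.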

Additional observations from a re-analysis of the deposited data

Results flagged for a closer look

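In 4 of 36 values searched, 1 animal lay far from the other 9. The limit used passes about 1 in 20 values by chance if they are normal and independent. Whether that holds for these CPM was not tested, so no excess over chance is read from the count. IL7R was highest in the lymphocytes of animal 6, at 1653 CPM against 480 CPM in the next animal, with 96 UMIs in 10 of its 15 cells and 25 of them in 1 cell. The GIMAP7 copy ENSBTAG00000008550 (GIMAP7-ENSBTAG00000008550) was highest in animal 4, at 1219 CPM against 602 CPM, with UMIs in all 12 cells. FCER1G was also highest in animal 4, at 813 CPM against 435 CPM, with UMIs in 9 of 12 cells. CXCR4 was highest in animal 9, at 2046 CPM against 1628 CPM, with UMIs in 19 of 21 cells.

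Barcodes that the comparisons leave out also held CD3. Of 4585 Muscle barcodes that were not kept, 160 (3.49%) held at least 2 UMIs of CD3D, CD3E or CD3G, against 145 of the 4395 kept barcodes (3.3%). Of the 160, 108 were ambiguous in their genotype, 34 were doublets of different animals and 18 were singlets removed by quality control, which had a median of 12.5% mitochondrial UMIs.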

How the results depend on the processing

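The comparison of cells with and without a CD3 UMI gave 14 called genes in all; 9 were called by DESeq2 (all 9 shared, with 409 of 659 adjusted p not given), 58 with no filter other than 1 count (all 14 shared), 7 with at least 2 cells in both classes (6 shared), 1 after thinning each lymphocyte to 1000 UMIs before the split (UBD), 13 without the block (10 shared), 15 without the 17 lymphocytes with RNA of other types (13 shared, chosen after seeing the data), and 5 to 17 with 1 animal left out. No called gene changed sign in any alternative that tested it.

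The NK list turned to 0.49 after thinning (10 animals, 2-sided exact sign-flip p = 0.121), to 0.027 with at least 2 cells in both classes (exact p = 0.922) and ranged from -0.61 to 0.049 (without animal 8) with 1 animal left out. The cytotoxic granule list turned to 0.0259 after thinning (exact p = 0.895) and ranged from -0.35 to -0.05 with 1 animal left out. With a pseudocount of 1 CPM, 1149 genes were past 2-fold higher in lymphocytes and 5077 lower, and with the mean of per-animal ratios 486 and 2457. The share with a CD3 UMI moved from 76.1% to 58.5% after thinning; the separate draw behind the thinned fit and lists left 105 cells with and 83 without a CD3 UMI. The cause was not tested. Sums of 29777 to 120119 UMIs limit the fit to abundant genes. The planned comparisons of calves and adults were not run, because groups were taken only from the labels and the deposited tables; the study describes the age class of each animal, which was not used here.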
